A study of Homo sapiens with 4 samples.

Results

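The genes described here are 9 of the MHC class I antigen presentation pathway in human leukaemic cells taken from brain or spleen of transplanted mice. They are the class I chains HLA-B, HLA-C, HLA-E and HLA-F, the light chain B2M, the peptide loading genes TAP1, TAP2 and TAPBP, and NLRC5. They were taken by symbol, 1 identifier each on the primary assembly, from the 65217 human genes of the deposited table, and 9 of 9 passed the filter on low counts that left 17075 genes for testing. The list does not hold every class I gene. The cells were of the SEM line, an established human line of B-cell precursor ALL with a KMT2A-AFF1 (MLL-AF4) fusion gene, and both groups were grown from this same line in immunodeficient mice aged 6 to 10 weeks. The mouse strain is not given in the sources used here. In the brain group, for which the protocol names the leptomeninges as the site of collection, there were 2 libraries, and in the spleen group there were 2. Each library held RNA of 5 mice, combined after Ficoll enrichment. The comparison asked which genes differed between leukaemic cells of the 2 sites.

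MHC class I molecules display peptides from inside the cell to cytotoxic T cells. The proteasome cuts proteins to peptides, the TAP1-TAP2 transporter moves them into the endoplasmic reticulum, and tapasin (TAPBP) holds empty class I chains at the transporter until a peptide fits. As a rule a chain leaves for the surface with its peptide and with B2M. HLA-B and HLA-C are classical, highly polymorphic chains that present peptides to T cells and are also read by inhibitory receptors of NK cells. HLA-E binds leader peptides of other class I chains and is read by the CD94-NKG2A receptor of NK cells, and HLA-F is a further non-classical chain. NLRC5 is the transcriptional activator of class I genes, the counterpart of CIITA for class II genes.

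The gene counts summed to 26266136 to 36913437 per library. Levels are given as CPM (a gene's counts for every 1000000 of its library, with normalisation factors). Of 8 markers of B-cell precursor leukaemia fixed for the check, 8 were detected. They summed to 2268 and 2080 CPM in brain and to 1736 and 1822 CPM in spleen. In 6 of the 8 both brain libraries lay above both spleen libraries and in 2 below, as in 30.2% and 26.7% of all genes. By edgeR 0 of 8 were called (2.02% of all genes). With the replicate number as a block 2 rose (7.48% of all genes). Of 13 human markers of other cell types, 8 stayed under 1 CPM in every library and 3 were at 0 in every library (CD3D, FCGR3A and PPBP). The list summed to 186 and 141 CPM in brain and to 163 and 166 CPM in spleen, mostly from NKG7, PECAM1, CSF1R and AIF1. Its 5 tested genes did not move one way: PECAM1 had a log2 fold change of 0.95 ± 0.21 (edgeR, adjusted p = 0.0672; with the block 0.000913), and the other 4 were negative, with a median over the 5 of -0.45. Mouse transcripts took 2.24% and 1.45% of all counts in brain against 4.31% and 6.32% in spleen, and the part of host cells in the results below was not tested. In such bulk RNA, fewer cells with a transcript and less of it per cell cannot be told apart. Spleen replicate 2 stood apart by base composition: with the tested genes ranked by GC content and divided into 5 equal classes, genes of the richest class had a median log2 deviation of 0.15 there (from each gene's mean over the 4 libraries), against -0.06 to -0.04 elsewhere. In the poorest class it was -0.33, against 0.11 to 0.13 elsewhere. Of the 9 genes, 7 lie in the 2 richest classes.

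The promoter windows of 3 members are shown because they carry matches to elements of NF-Y, of interferon regulatory factors and of NF-κB. The TAP1 window held no TGACG match. Sites of the RFX factor, on which NLRC5 assembles, were not searched. Each runs from 250 bases before to 50 bases after the start of the gene (RefSeq, GRCh38.p14), on the strand of the gene, and 7 of the 9 members had at least 1 such window. Capitals mark matches on either strand to CCAAT (the NF-Y box), AANNGAAA (the core bound by interferon regulatory factors), TGACG (the core of a cyclic AMP response element) and the NF-κB consensus, where overlapping matches form 1 stretch.
HLA-B, chr6:31357130-31357429, minus strand: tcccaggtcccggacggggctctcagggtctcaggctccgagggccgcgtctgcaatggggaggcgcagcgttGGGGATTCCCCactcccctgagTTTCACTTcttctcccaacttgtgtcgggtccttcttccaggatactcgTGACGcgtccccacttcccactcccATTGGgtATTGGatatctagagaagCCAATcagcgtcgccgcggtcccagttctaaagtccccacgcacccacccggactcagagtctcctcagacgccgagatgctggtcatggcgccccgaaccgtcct
B2M, chr15:44711267-44711566, plus strand: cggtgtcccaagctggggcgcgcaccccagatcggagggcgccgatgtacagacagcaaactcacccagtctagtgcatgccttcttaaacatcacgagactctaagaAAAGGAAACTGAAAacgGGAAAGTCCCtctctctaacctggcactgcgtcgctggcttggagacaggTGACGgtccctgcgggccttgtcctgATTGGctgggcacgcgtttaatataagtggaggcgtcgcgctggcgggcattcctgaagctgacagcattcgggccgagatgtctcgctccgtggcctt
TAP1, chr6:32853655-32853954, minus strand: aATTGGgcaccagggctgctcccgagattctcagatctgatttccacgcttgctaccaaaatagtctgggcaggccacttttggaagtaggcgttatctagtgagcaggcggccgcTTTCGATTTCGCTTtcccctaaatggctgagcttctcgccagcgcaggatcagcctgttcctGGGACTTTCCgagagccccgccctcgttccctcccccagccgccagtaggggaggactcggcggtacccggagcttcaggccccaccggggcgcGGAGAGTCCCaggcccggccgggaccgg

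The interferon regulatory factor core was present in a window of each of these 7 members (HLA-B, HLA-C, HLA-F, B2M, TAP1, TAP2 and TAPBP). Another window of TAP1 held no match. Of all 34796 windows, 22.9% held the core. The core had been shortened by 1 base after a longer form missed the B2M window, so the 7 are no test against that share. CCAAT was present in 34.6% of all windows, TGACG in 24.5% and the NF-κB consensus in 5.91%. HLA-B, HLA-C and B2M held all 4 elements. These matches describe the letters of the windows, and binding was not measured.

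None of the 9 genes passed the test between sites. By edgeR's quasi-likelihood test 0 of 9 were called at an adjusted p under 0.05, against 2.02% of the 17075 genes (1.63% higher in brain, 0.387% lower). DESeq2 called 0 of 9 (5.62% of all genes), and 2 of 9 had an unadjusted p under 0.05 (20.6% of all genes). The log2 fold changes of brain over spleen ran from -0.35 to 0.59 with a median of -0.03, beside a median of 0.04 over all genes tested. In 4 of the 9 both brain libraries lay above both spleen libraries and in 1 both lay below, as they did in 30.2% and 26.7% of all genes.

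**Figure D1:**
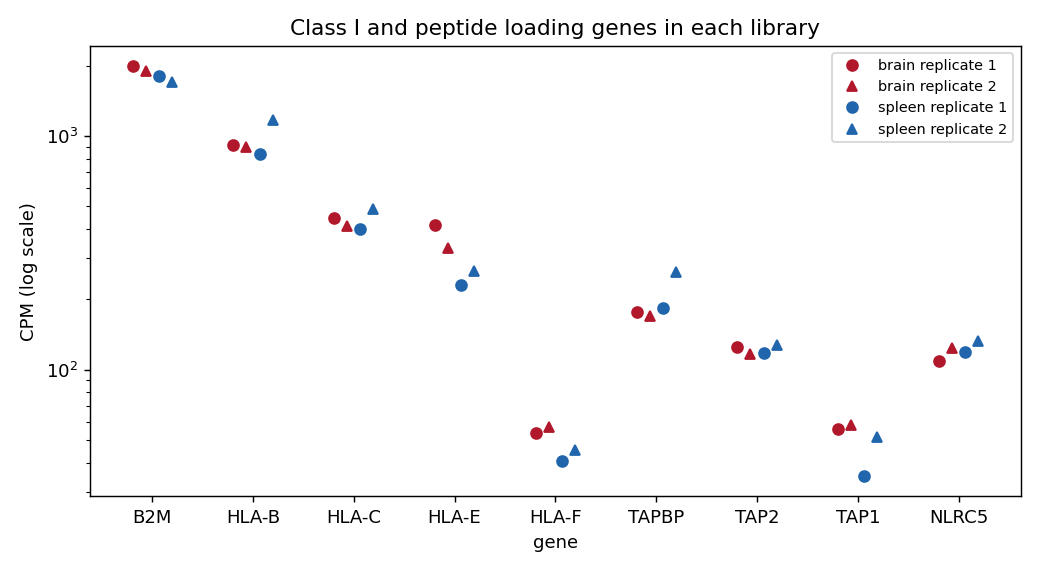
Level of each gene in each of the 4 libraries, in CPM on a log axis (red, brain; blue, spleen; circles, replicate 1; triangles, replicate 2). B2M stood highest at 1703 to 1983 CPM, and HLA-E, HLA-F, TAP1 and B2M had both brain libraries above both spleen libraries.

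Among the class I chains, HLA-B (chromosome 6, 31353872 to 31367067, GRCh38) had 915 and 901 CPM in the brain libraries and 836 and 1170.0 CPM in the spleen libraries. The groups overlapped, since spleen held both the lowest and the highest value. Its log2 fold change was -0.14 ± 0.18 (SE; edgeR, adjusted p = 0.683), with a 95% interval from -0.56 to 0.27. HLA-C (31268749 to 31272130 on the same chromosome) had 444 and 413 CPM in brain and 399 and 489 CPM in spleen, again overlapping. Its log2 fold change was -0.05 ± 0.15 (95% interval -0.40 to 0.30). Spleen replicate 2, the library that stood apart by GC content, gave the highest value for both chains. The reads of these polymorphic and similar chains can be shared between them, so their counts are uncertain.

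HLA-E, the ligand of CD94-NKG2A, had the largest fold change of the 9 with all 4 libraries, though TAPBP moved further without spleen replicate 1 and TAP1 as far without spleen replicate 2. This gene (chromosome 6, 30489509 to 30494194) had 415 and 332 CPM in brain and 231 and 265 CPM in spleen, and the groups did not overlap. The means were 373 ± 59.0 and 248 ± 24.1 CPM (SD, n = 2 in each group), a 1.51-fold difference with a 95% interval of 1.17 to 1.95. The log2 fold change of 0.59 ± 0.16 did not pass the test over all genes (edgeR, unadjusted p = 0.00634, adjusted p = 0.106). With the replicate number as a block it passed (adjusted p = 0.0325), where 10.9% of all genes were called (7.48% higher in brain, 3.37% lower). The standard error rose to 0.20 with the block, while the degrees of freedom that the fit assigned went from 7.84 to 17075, so the smaller p is no sign of a closer estimate. DESeq2 with the block gave adjusted p = 0.241.

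HLA-F (chromosome 6, 29722775 to 29738528) had 53.6 and 56.9 CPM in brain and 40.6 and 45.4 CPM in spleen. The groups did not overlap, and the log2 fold change of 0.36 ± 0.15 did not pass (edgeR, unadjusted p = 0.0465, adjusted p = 0.234). B2M, on chromosome 15 (44711358 to 44718851), had 1983 and 1895 CPM in brain and 1808 and 1703 CPM in spleen. All 4 values lay close together and without overlap, with a log2 fold change of 0.14 ± 0.14 and a 95% interval of -0.17 to 0.46. A rise of B2M by more than 1.37-fold lay outside this interval.

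**Figure D2:**
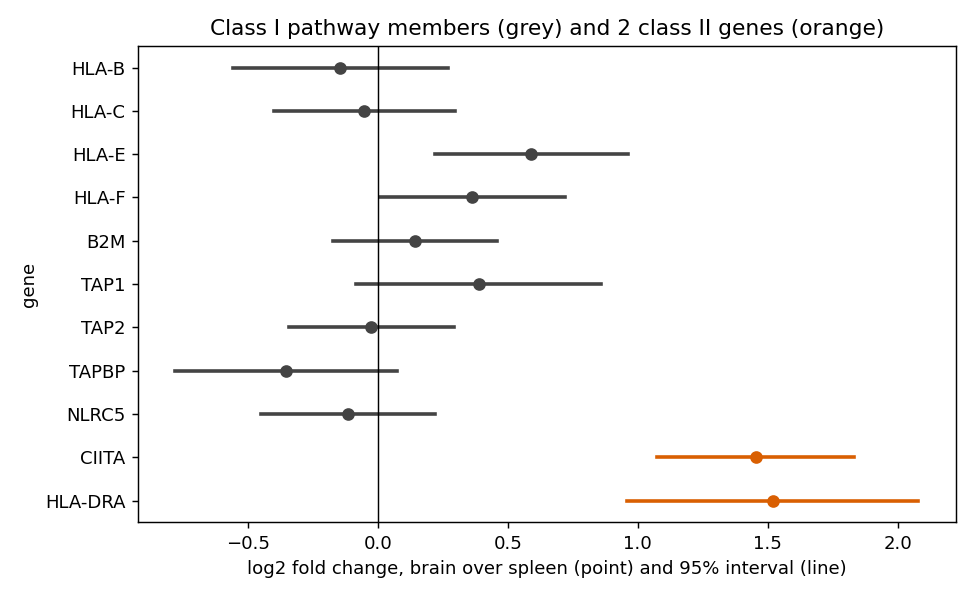
Log2 fold change of brain over spleen (point) with its 95% interval (line) for the 9 genes (grey) and for CIITA and HLA-DRA of class II (orange). The intervals of HLA-E (0.22 to 0.96) and HLA-F (0.01 to 0.72) lie above 0 before adjustment for the number of genes tested, and those of CIITA and HLA-DRA lie above 0.9.

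Of the peptide loading genes, TAP1 (chromosome 6, 32845209 to 32853816) had 55.8 and 58.0 CPM in brain and 35.2 and 51.8 CPM in spleen. The brain libraries lay close together and above both spleen libraries, which differed from each other. The log2 fold change was 0.39 ± 0.20 (adjusted p = 0.320). TAP2, the other subunit of the transporter (32821833 to 32838739), had 125 and 117 CPM in brain and 118 and 128 CPM in spleen, and the groups overlapped. Its log2 fold change was -0.03 ± 0.14 (95% interval -0.34 to 0.29). TAPBP, which encodes tapasin (33299694 to 33314284), had 177 and 170.3 CPM in brain and 183 and 261 CPM in spleen. The brain libraries lay just under spleen replicate 1 and well under spleen replicate 2, with a log2 fold change of -0.35 ± 0.18 (adjusted p = 0.317).

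NLRC5 (chromosome 16, 56989485 to 57083531) had 109 and 124 CPM in brain and 120 and 132 CPM in spleen, and the groups overlapped. Its log2 fold change was -0.11 ± 0.14 (95% interval -0.45 to 0.22). CIITA, its class II counterpart, had 159 and 135 CPM in brain and 48.9 and 58.5 CPM in spleen and rose by 1.45 ± 0.16 (edgeR, adjusted p = 0.00747). Of 12 class II genes, CIITA included, 6 rose and 6 did not pass, where 1.63% of all genes rose. The median of the 12 was 1.49, and 1 of them was negative. Brain replicate 1 was the highest library for 11 of 12. DESeq2 called 10 of 12, where it called 5.62% of all genes. With the block 11 of 12 rose, where 7.48% of all genes did. DESeq2 with the block called 10, where it called 2.47% of all genes. PECAM1, an endothelial marker also made by some leucocytes, was higher in both brain libraries as well (72.4 and 49.7 CPM against 33.4 and 29.9 CPM), and its part in the class II and interferon values was not tested. HLA-DMB (1.97 ± 0.26), HLA-DOA (1.59 ± 0.24) and HLA-DRA (1.52 ± 0.23) were among the class II genes that rose. The call of HLA-DOA ended without either spleen library. With a stricter filter on low counts (0.951% of all genes called) most of the 6 calls ended, those of HLA-DOA and HLA-DRA among them. That class II genes rise was known from earlier results of these data.

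Ratios of 2 genes within a library do not depend on the scaling between libraries. The 3 ratios given here were chosen after the values had been seen, and the smallest p that the exact permutation test allows with 2 libraries in each group is 0.333. For each 100 counts of HLA-B there were 45.4 and 36.8 counts of HLA-E in brain and 27.6 and 22.6 in spleen, a log2 difference of 0.71 (exact two-sided p = 0.333). For each 100 counts of NLRC5 there were 146 and 109 counts of CIITA in brain and 40.9 and 44.3 in spleen, a log2 difference of 1.57. For each 100 counts of PSMB9, an immunoproteasome gene, there were 112 and 119 counts of TAP1 in brain and 66.3 and 67.6 in spleen. The TAP1 and PSMB9 windows lie on opposite strands and point away from each other. At their upstream ends they share 13 bases, in which the CCAAT match at the edge of the TAP1 window lies. The log2 difference of this pair was 0.78, and it ran from 0.64 to 0.82 over the alternatives tried. That of HLA-E and HLA-B ran from 0.55 to 0.88, and was 0.56 with the trend over GC content and length taken out. That of CIITA and NLRC5 ran from 1.36 to 1.96.

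**Figure D3:**
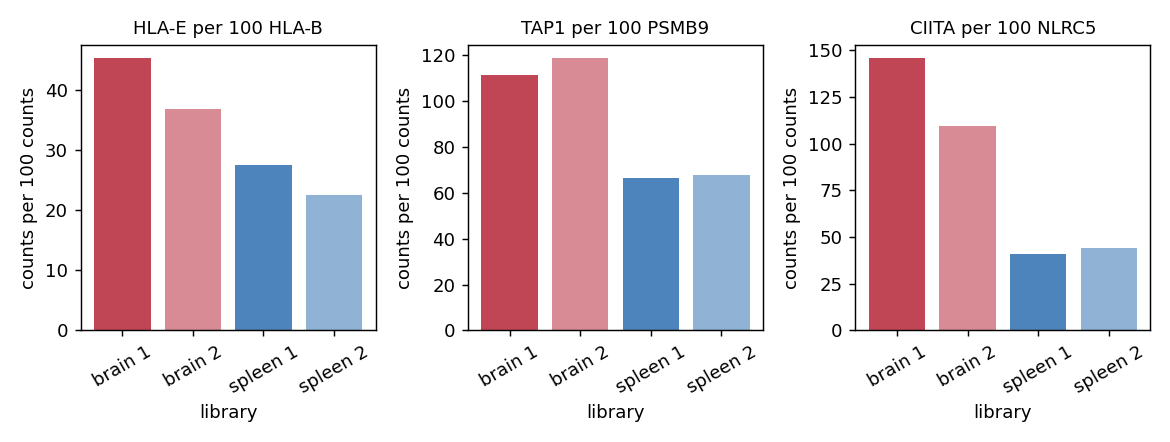
Counts of HLA-E per 100 of HLA-B, of TAP1 per 100 of PSMB9 and of CIITA per 100 of NLRC5, 1 bar for each library (red, brain; blue, spleen). In each panel both brain bars stand above both spleen bars.

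Levels between genes can be compared only per length, as TPM (transcripts for every 1000000, scaled by length over human and mouse transcripts together). By this measure B2M had 3905 and 4052 TPM in brain and 3457 and 2754 TPM in spleen, from transcripts that held 70.2% to 71.6% of its counts, so these are underestimates. HLA-B followed with 988 ± 58.2 TPM in brain and 985 ± 189 in spleen, then HLA-C with 394 ± 1.66 and 352 ± 24.1 and HLA-E with 219 ± 23.4 and 123 ± 1.76. These 4 did not overlap one another in any library. The values are for the primary identifier of each gene, since sums over alternative haplotype identifiers were not run. HLA-F had 51.9 to 86.4 TPM, TAPBP 64.7 to 81.1 and NLRC5 47.4 to 71.7, and their order could not be told from their spread. The NLRC5 values rest on 73.8% and 72.9% of its counts in brain and on at least 95.4% in spleen, so its brain values are underestimates and its groups are not compared in TPM. HLA-C (90.1% to 93.6% of its counts) and TAP2 (87.3% to 91.0%) are underestimated too. TAP2 had 37.3 to 46.5 TPM and TAP1 the least, 16.3 to 29.8. In TPM the TAPBP groups overlapped, since both brain values (67.4 and 70.4) lay between those of spleen (64.7 and 81.1).

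The rest of the pathway was taken from lists of genes by role. Over all genes tested edgeR called 2.02% and DESeq2 5.62%, and 20.6% had an unadjusted p under 0.05. The immunoproteasome is a form of the proteasome, which cuts proteins to peptides. Its list of catalytic subunits and activator had 5 of 5 negative fold changes and 0 of 5 called (DESeq2 called 1, 2 had an unadjusted p under 0.05). PSME2, a subunit of the PA28 activator, had 139 and 139 CPM in brain and 199 and 244 CPM in spleen. Its log2 fold change of -0.67 ± 0.15 did not pass (edgeR, adjusted p = 0.0707; with the block adjusted p = 0.0120). PSME1, the partner subunit, had -0.26 ± 0.16. The 3 standard catalytic subunits also had negative values and 0 of 3 called (DESeq2 0, unadjusted 2), with PSMB6 at -0.65 ± 0.19 and PSMB7 at -0.25 ± 0.14. With the block 2 of these 3 fell, where 3.37% of all genes did. Spleen replicate 2 was the highest library for 5 of 5 and 3 of 3 genes of these lists.

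Of 13 genes of peptide trimming, chain folding and editing, 0 were called (DESeq2 0, unadjusted 3), with a median of 0.05. CANX, the lectin chaperone that receives new class I chains, had a log2 fold change of 0.05 ± 0.14 and CALR, the chaperone of the loading complex, had -0.29 ± 0.15. Of 8 factors that bind MHC promoters 0 were called (DESeq2 0, unadjusted 1), with a median of 0.17. RFX5, a subunit of the factor on which both NLRC5 and CIITA assemble, had 0.34 ± 0.14 and NFYA, a subunit of NF-Y, had 0.29 ± 0.14. Of 7 inducers of class I genes 0 were called (DESeq2 0, unadjusted 1), with IRF1 at -0.16 ± 0.16 and IRF8 at -0.21 ± 0.14. Of 6 subunits of Polycomb repressive complex 2, which can silence the pathway, 0 were called (DESeq2 1, unadjusted 1). With the block 2 of these rose, where 7.48% of all genes did. SUZ12 had 211 CPM in spleen replicate 1 and 89.1 CPM in spleen replicate 2, with both brain libraries between them, and a log2 fold change of 0.43 ± 0.47. EZH2, a methyltransferase of the complex, had -0.18 ± 0.15. EZH1, its paralogue on the same list, had 46.1 and 51.2 CPM in brain and 30.8 and 28.2 CPM in spleen. Its log2 fold change of 0.72 ± 0.16 was the largest of the list and did not pass (edgeR, adjusted p = 0.0684). Of the 6 values 4 were above 0, with a median of 0.09.

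Interferon induces most genes of the pathway. Of 18 interferon response genes outside it 0 were called (DESeq2 6, unadjusted 10), and the values of 17 were above 0, as were 53.3% of all genes tested. The median log2 fold change was 0.62. In 12 of 18 both brain libraries lay above both spleen libraries, as in 30.2% of all genes, and brain replicate 1 was the highest library for 15 of 18. OAS2, a sensor enzyme of viral RNA, had 89.6 and 54.4 CPM in brain and 23.7 and 31.3 CPM in spleen, a log2 fold change of 1.39 ± 0.28 (edgeR, adjusted p = 0.0741). STAT2, a subunit of the factor that carries the type I interferon signal, had 0.32 ± 0.16. With the block 9 of 18 rose, OAS2 among them, where 7.48% of all genes did. DESeq2 with the block called 4, where it called 2.47% of all genes. Of 7 receptors and kinases of interferon 0 were called (DESeq2 0, unadjusted 2), with JAK1 at 0.35 ± 0.13 and TYK2 at 0.06 ± 0.14. Of 9 class I-like and NKG2D ligand genes 0 were called (DESeq2 0, unadjusted 2), with 6 values above 0 and a median of 0.14. FCGRT, the neonatal Fc receptor, had -0.36 ± 0.15 and MICB, a ligand of NKG2D, had 0.00 ± 0.21.

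**Figure D4:**
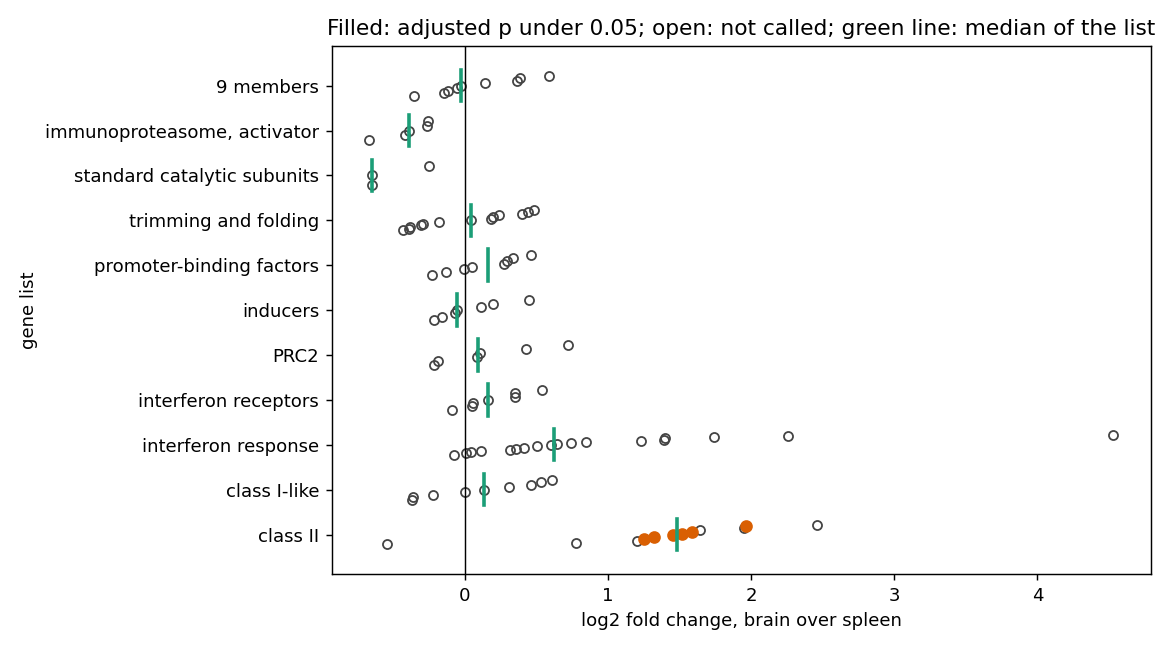
Log2 fold change of brain over spleen for each gene tested in the 9 members and in 10 lists of related genes (filled orange, adjusted p under 0.05; open, not called; green line, median of the list). Called genes appear in the class II list, 6 of 12, and the interferon response list reaches from -0.08 to 4.53 with 0 called.

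The result for several members rested on which spleen library was kept. Without spleen replicate 1, HLA-B (-0.42, edgeR, adjusted p = 0.00150), HLA-C (-0.24), TAPBP (-0.64) and HLA-E (0.44) passed, with 37.9% of all genes called. Without spleen replicate 2, TAP1 (0.71), HLA-F (0.46) and HLA-E (0.71, edgeR, adjusted p = 0.00370) passed, with 17.3% of all genes called. The differences of TAP1 and TAPBP were nearly lost in the opposite fits: TAP1 had 0.085 without spleen replicate 1 and TAPBP had -0.064 without spleen replicate 2. In these fits the lone spleen library is assumed to vary like the brain libraries. HLA-E passed in both. Without brain replicate 1 its log2 fold change was 0.42 (edgeR, adjusted p = 0.723; 2.25% of all genes called) and without brain replicate 2 it was 0.75 (adjusted p = 0.202; 3.09% called). With the trend over GC content and length taken out, HLA-B had -0.02 and HLA-F 0.50, and 0 of 9 passed (5.09% of all genes called). With the block added, HLA-E and HLA-F passed (13.4% called). With no filter on low counts HLA-E passed (adjusted p = 0.00244; 6.15% called).

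**Figure D5:**
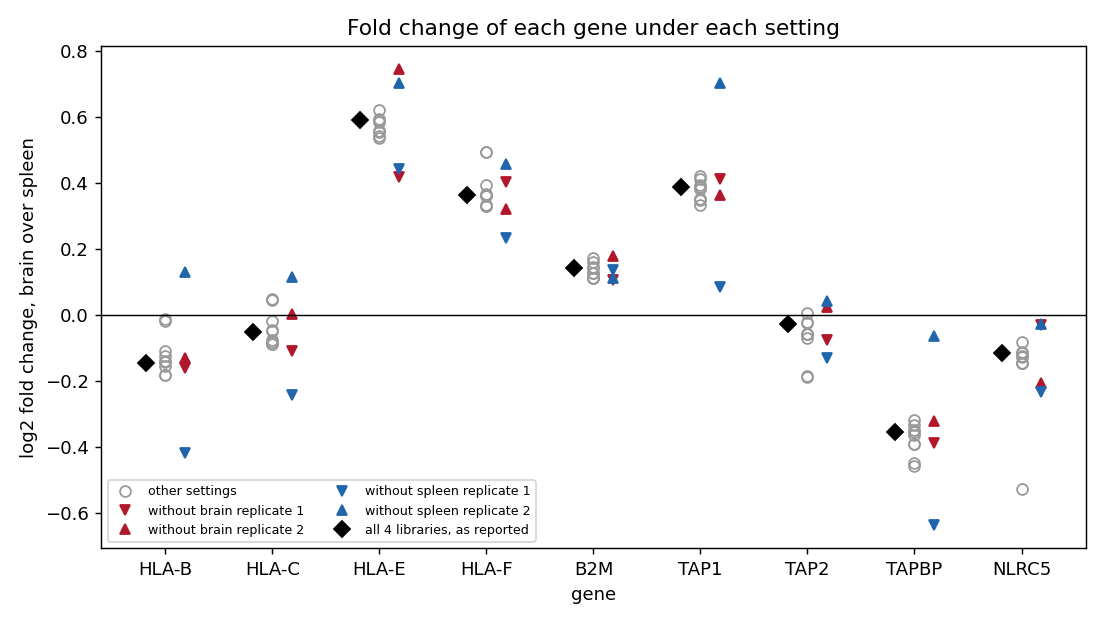
Log2 fold change of each gene with all 4 libraries (black diamonds), without 1 library (triangles; red, a brain library left out; blue, a spleen library left out) and under the other settings (grey circles). HLA-E stayed between 0.42 and 0.75, while HLA-B, HLA-C and TAP2 lay on both sides of 0, and the low NLRC5 circle is the value from transcript sums.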

How the data were processed

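RNA sequencing of 4 libraries was analysed, 2 from brain and 2 from spleen. Per the labels, poly(A) libraries were stranded and the replicate number marks an independent occasion. The submitters' processing notes name kallisto 0.42.4, cutadapt 1.5, bcl2fastq 1.8.4 and DESeq2, and the builds GRCh38 and GRCm38. Which settings and annotation release they used is not given in the sources used here, per the labels and files. The authors deposited estimated counts summed per gene as whole-number counts, and per transcript expected counts and TPM, per the file headers. The gene table holds 1 more column that matches no sample, which was not used, nor was a table of log values made with it. Symbols came from GENCODE release 44. Counts were tested with edgeR 4.0.16 in R 4.3.3 (TMM, filterByExpr, robust quasi-likelihood, Benjamini-Hochberg over 17075 genes), and DESeq2 1.42.0 was an alternative. The GC and length trend was fitted with mgcv 1.9.3, with values for 97.8% of the tested genes. Standard errors of log2 fold changes were derived from the F statistic, and 95% intervals from its degrees of freedom. A count of 0 allows up to 3 counts, or 0.0811 to 0.119 CPM, counting error only. P-values measure the spread between these libraries.

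The members, lists and tests were chosen with earlier results of these data known. The 9 members are named throughout, with up to 4 called genes of each list, or, without a call, the 2 with the highest mean CPM, and CIITA and HLA-DRA. EZH1 is named in addition, after its values were seen. Since the labels tie the replicate number to an occasion, it was taken to pair libraries, although deviations of same-numbered libraries correlated at 0.0269 across genes. The interferon regulatory factor core was shortened by 1 base after a longer form had found no match in the B2M window, so its presence there is no evidence.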

Additional observations from a re-analysis of the deposited data

How the results depend on the processing

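For the 9 genes, most of the fold changes under the alternatives kept their direction and side of the threshold (98 of 117), 11 passed that had not, and 8 changed sign. The number of the 9 genes called was 0 in the fit as reported, 1 with no filter, 1 with the replicate block, 2 with the GC and length trend removed and the block (HLA-E and HLA-F), and 0 to 4 without 1 library. Their median log2 fold change was -0.03, and -0.13 to 0.12 without 1 library. HLA-C turned to 0.048 with the GC and length trend removed, with and without the block, and ran from -0.24 to 0.12 without 1 library, HLA-B from -0.42 to 0.13 and TAP2 from -0.13 to 0.043. TAP2 was 0.0061 with the stricter filter. NLRC5 was -0.53 with gene sums of the transcript files (adjusted p = 0.107). Among the list genes, MICB (0.0040 as reported) turned to -0.032 with RLE factors and with DESeq2, -0.010 with DESeq2 and the block, -0.065 with the trend removed and -0.050 with trend and block. CANX turned to -0.30 with the trend removed, with and without the block. Without 1 library MICB ran from -0.28 to 0.30, CANX from -0.050 to 0.11, TYK2 from -0.055 to 0.13, IRF1 from -0.38 to 0.047 and SUZ12 from -0.048 to 1.13.

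All genes called numbered 345 (279 higher and 66 lower in brain), against 2123 with no filter, 104 with the stricter filter, 959 by DESeq2, 1853 with the replicate block, 869 with the trend removed, 2285 with trend and block, and 404 to 6807 without 1 library (6807 without spleen replicate 1, 3128 without spleen replicate 2, 551 without brain replicate 2). The split was 1269 higher and 854 lower with no filter, 561 and 398 by DESeq2, 1278 and 575 with the block, 485 and 384 with the trend removed, and 1153 and 1132 with trend and block. Fits with the block, with no filter or without a brain library were assigned very large degrees of freedom, so their p-values lean on the spread of all genes. Genes called in the 10 lists numbered 6, against 22, 2, 18, 25, 15 and 26 in the same order, 14 by DESeq2 with the block and 12 to 52 without 1 library. Sums over alternative haplotype identifiers were not run, since no table used here pairs them with symbols. The cause of these changes was not tested. The 9 genes had at least 1146 counts in every library, and the part of depth was not tested.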

Other observations

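The transcript files hold values for 4 of the genes that the gene counts do not show. For NLRC5, the transcripts that GENCODE release 44 assigns to the gene held 73.8% and 72.9% of its counts in brain against 95.4% in spleen replicate 2 and all but 1 count in spleen replicate 1. The counts left over were 1058 and 1145 in brain and 1 and 154 in spleen. Within 2 counts in each library they equalled those of 1 transcript identifier of 6724 bases that the release lacks, matched by its counts alone. A protein-coding transcript that the release does assign to NLRC5, of 6822 bases, held 421 and 430 estimated counts in brain and 790 and 405 in spleen. How reliably the estimates divide reads between such long transcripts was not tested, and the gene-level fold change was -0.11 from the deposited gene table and -0.53 from the release 44 transcripts.

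HLA-B-253, a retained-intron transcript of 753 bases, held 4.02% and 5.99% of the HLA-B counts in brain and 7.77% and 13.1% in spleen. It was singled out after its values were seen, and others went the opposite way: HLA-B-252 held 1.72% and 2.08% in brain and 1.18% and 0.927% in spleen, and HLA-B-255 held 0.605% and 0.882% against 0.458% and 0.288%. All retained-intron transcripts of HLA-B together held 8.35% and 12.2% in brain and 11.4% and 16.4% in spleen, and the groups overlapped. For B2M, transcripts that the release classes as targets of nonsense-mediated decay held between 67.6% and 68.6% of the counts in every library. Those classed as protein-coding held at most 0.738%, and most of the remainder was on no transcript that the release assigns to the gene. The release lacks 8378 of the human transcripts counted, so these B2M shares do not tell how much of its RNA is coding. HLA-E was simple by comparison, with 97.3% to 98.5% of its counts on protein-coding transcripts in every library.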
